A study of Mus musculus with 12 samples.

Results

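The 8 genes described here encode transcription factors that set where along the gut an epithelial cell belongs and what it becomes. They are the homeobox factors Cdx1 and Cdx2, the nuclear receptors Hnf4a and Hnf4g, the zinc finger factors Gata4 and Gata6, the secretory fate factor Atoh1 and the differentiation factor Klf4. They were taken by symbol from the table of raw counts, where they are 8 of 18514 genes, and all 8 passed the filter on low counts that 15484 genes passed. The measurement was RNA sequencing of colorectal tissue from male C57BL/6 mice, bought at 4 weeks of age, with 12 libraries in 4 groups of 3, and each library is treated as a separate mouse. Ctrl mice received ordinary water, no carcinogen and no training. Ctrl_Swim mice were trained by swimming for up to 90 min per day, from 2 months before the other treatments to the end. Model mice received azoxymethane (AOM), an alkylating carcinogen, once at 10 mg/kg and then 3 cycles of drinking water with 2% dextran sulfate sodium (DSS), which damages and inflames the colon, so that tumors of colitis-associated cancer form. Model_Swim mice received both AOM/DSS and swimming, and the untrained mice of the Ctrl and Model groups stood in shallow warm water. The colon was taken from the distal cecum to the rectum, and whether tumor and surrounding tissue were separated before RNA extraction is not given in the sources used here.

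In the embryo the Cdx factors turn the posterior endoderm into intestine, and in the adult they keep intestinal genes on. The HNF4 receptors bind the enhancers of absorptive enterocyte genes together with Cdx2, and Gata4 marks the proximal small intestine while Gata6 is found along the whole gut. Atoh1 commits a progenitor to the secretory lineage, which Notch signaling opposes, and Klf4 is a factor of cell cycle exit and goblet cell maturation. Loss of Cdx2 or Hnf4a in the adult colon epithelium of mice is known to disturb differentiation and to make colitis worse.

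The libraries held 17256953 to 19451055 counts each. A gene with no count could still be at up to 3 counts, which is 0.154 to 0.174 CPM, for counting error only. CPM are counts scaled to library size with edgeR's TMM factors. All 12 genes of a list of general epithelial markers were detected in every library, so epithelial RNA was present in all samples. Their summed level was 10306 to 11119 CPM in Model and 13370 to 15142 CPM in Ctrl. In pancreatic genes, 2 libraries stood apart. The summed level of 17 genes of pancreatic acinar cells was 52313 CPM in Model 1 and 25283 CPM in Model 3 against 95.4 to 214 CPM in the other 10, and that of 7 pancreatic islet genes was 15.1 and 6.43 CPM against 0.548 to 1.63 CPM. Model 3 also had a summed level of 23.4 CPM over 5 Hox genes of the distal colon and rectum, with 1 at a count of 0. This Hox level was 262 CPM in Model 1 and 251 CPM in Model 2, against 82.0 to 186 CPM in the other groups. Model 2 also had the highest summed level of 14 squamous genes, at 2047 CPM. The part of such differences in the results on Model was not tested. Several results on Model, but not all, are therefore also given without Model 1 and Model 3, which leaves Model 2 as the only Model library.

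The 250 bases before the start sites of Cdx2 and of Hnf4a, which has 2 listed starts, are shown because the factors of this set are known to bind each other's control regions and both genes were lower in Model. Capitals mark the letters that matched a searched motif, and each sequence is from RefSeq on GRCm38.p6, read 5′ to 3′ toward the gene. The windows are chr5:147307250-147307499 on the minus strand for Cdx2, and chr2:163506607-163506856 and chr2:163546905-163547154 on the plus strand for Hnf4a. The Hnf4a gene is listed from 163506811, so the end of the first Hnf4a window and all of the second lie inside the listed gene.
Cdx2: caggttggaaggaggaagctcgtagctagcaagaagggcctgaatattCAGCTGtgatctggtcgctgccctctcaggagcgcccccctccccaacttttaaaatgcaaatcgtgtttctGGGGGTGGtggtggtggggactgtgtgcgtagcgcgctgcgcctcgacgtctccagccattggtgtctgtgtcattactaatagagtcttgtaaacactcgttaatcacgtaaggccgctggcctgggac
Hnf4a, first start: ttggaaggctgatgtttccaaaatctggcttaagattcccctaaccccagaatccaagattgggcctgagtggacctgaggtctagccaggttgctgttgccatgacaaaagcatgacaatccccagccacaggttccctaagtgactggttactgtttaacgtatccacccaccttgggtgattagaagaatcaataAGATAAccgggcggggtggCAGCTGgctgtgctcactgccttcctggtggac
Hnf4a, second start: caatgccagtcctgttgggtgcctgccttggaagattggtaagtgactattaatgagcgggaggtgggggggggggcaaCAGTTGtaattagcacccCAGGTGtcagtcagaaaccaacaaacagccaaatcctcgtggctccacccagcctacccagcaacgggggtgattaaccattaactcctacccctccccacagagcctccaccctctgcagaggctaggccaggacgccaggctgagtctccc

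Both strands were searched for motifs of the factors. Of 32526 promoter windows of 250 bases, the CDX motif TTTATNG was in 9.74%, the HNF4 motif CAAAGTNCA in 1.21%, the GATA motif NGATAA in 22.4%, the KLF motif GGGNGTGG in 15.9%, and the E-box CAGNTG, of the kind that Atoh1 binds, in 44.9%. The Cdx2 window holds a KLF match 130 bases before the start and an E-box 202 bases before it. The first Hnf4a window holds a GATA match 52 bases and an E-box 33 bases before the start, and the second holds E-boxes 171 and 153 bases before it. Atoh1, which was also lower in Model, had a listed window of 250 bases with no match to any of these motifs, and its sequence is not shown. The letters CAGCTG read the same on both strands and are counted once. These matches describe the letters only, and the counts per gene do not separate the Hnf4a starts.

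Levels between genes were compared per length, as FPKM (fragments scaled to transcript length and library size). Over the 12 libraries, the mean FPKM was 193 for Klf4, 172 for Hnf4a, 170 for Cdx1, 111 for Cdx2, 31.7 for Atoh1, 14.5 for Gata6, 9.94 for Hnf4g and 0.300 for Gata4. The 3 leading genes were not separated, since Klf4 lay above Hnf4a in 9 libraries and Hnf4a above Cdx1 in 6, while from Cdx1 downward each gene lay above the next in all 12. The colon thus held both Cdx genes at high levels and much more Hnf4a than Hnf4g. Gata4, the factor of the proximal small intestine, had only 9 to 64 counts per library.

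The genes lie apart from each other on the mouse genome GRCm38.p6. Cdx1 is at chromosome 18, 61018862 to 61036199, Cdx2 at chromosome 5, 147300900 to 147307249, Hnf4a at chromosome 2, 163506811 to 163572907, and Hnf4g at chromosome 3, 3508030 to 3659800. Gata4 is at chromosome 14, 63198914 to 63271712, Gata6 at chromosome 18, 11052510 to 11085636, Atoh1 at chromosome 6, 64729125 to 64731245, and Klf4 at chromosome 4, 55527137 to 55532475. Hnf4a overlaps an antisense gene, Hnf4aos, and Gata6 overlaps a gene on the opposite strand. The library kit keeps strand, but whether the counting used it is not stated, so reads of such pairs may have been mixed.

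Between Model and Ctrl, 6 of the 8 factors fell and none rose. The falling genes were Cdx1, Cdx2, Hnf4a, Hnf4g, Gata6 and Atoh1, at an adjusted p under 0.05 in edgeR's quasi-likelihood test, and 16.2% of all tested genes were lower by the same rule. The largest decrease was that of Hnf4g, 2.13-fold, and the only one past the 2-fold cutoff that the study used, which 1.22% of tested genes passed downward. Klf4 and Gata4 did not pass. In the same 6 all Model libraries were below all Ctrl libraries, as in 23.2% of tested genes. The median log2 fold change of the 8 was -0.48, and that of all tested genes was 0.01. This comparison asks what the tumor model does to the colon of untrained mice. The p-values rest on the spread between the 3 libraries of each group, shared over all 4 groups in one fit. An exact test of a single value with 3 against 3 could not go below 0.1.

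**Figure D1:**
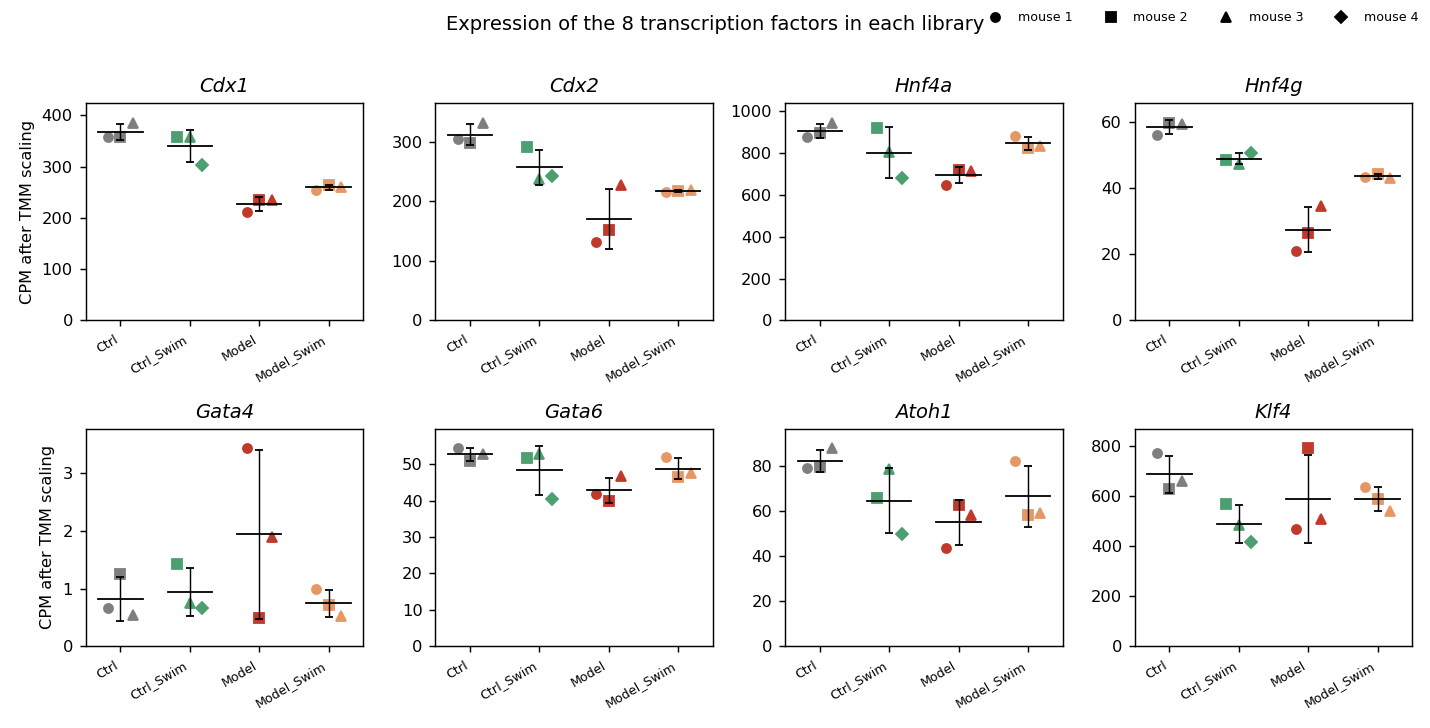
Expression of each of the 8 factors (vertical axis, CPM after TMM scaling, from 0) in every library of the 4 groups, with the group mean as a line and its SD as a bar. The symbol gives the number in the library's label, which was not taken to pair mice between groups. Cdx1 lies at 211 to 236 CPM in Model and 359 to 386 CPM in Ctrl without overlap, and Gata4 is highest in Model 1 at 3.43 CPM.

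Values per library follow the numbers in the labels, 1 to 3, or 2 to 4 in Ctrl_Swim. Cdx1, which in the adult gut is enriched in crypts and in colon, was at 359, 359 and 386 CPM in Ctrl, at 357, 358 and 303 CPM in Ctrl_Swim, at 211, 236 and 234 CPM in Model, and at 255, 265 and 260.5 CPM in Model_Swim. All 6 AOM/DSS libraries lay below all 6 others, and Model_Swim lay between Model and Ctrl_Swim without overlap with either. In Model against Ctrl its log2 fold change was -0.70 (SE 0.08, n = 3 per group, edgeR adjusted p = 0.000407), a 1.62-fold decrease.

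Cdx2, the master regulator of intestinal identity, was at 305, 299 and 332 CPM in Ctrl, at 291, 237 and 243 CPM in Ctrl_Swim, at 131, 152 and 227 CPM in Model, and at 215, 218 and 219 CPM in Model_Swim. The Model libraries were spread widely, with an SD of 50.3 CPM against 1.73 CPM in Model_Swim, and the high Model library was Model 3, the library with few distal Hox counts. Cdx2 fell by 0.87 on the log2 scale between Ctrl and Model (SE 0.16, edgeR adjusted p = 0.00341), and the call held without Model 1 and Model 3, at a log2 fold change of -1.06 (edgeR adjusted p = 0.000418).

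The ratio of Cdx1 to Cdx2 within a library did not depend on library scaling. It was 1.16 to 1.20 in Ctrl, 1.23 to 1.51 in Ctrl_Swim, 1.03 to 1.61 in Model and 1.19 to 1.22 in Model_Swim. Tested over the 400 ways to assign AOM/DSS within the swimming and the untrained mice, its log2 difference was 0.04 (exact permutation test, two-sided p = 0.745, 6 against 6 libraries). A change in the balance of the Cdx genes was not detected, and the Model range enclosed the Ctrl range.

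Hnf4a, the more abundant HNF4 receptor and a factor of epithelial differentiation, was at 878, 894 and 945 CPM in Ctrl, at 922, 806 and 680.0 CPM in Ctrl_Swim, at 648, 719 and 715 CPM in Model, and at 879.9, 825 and 834 CPM in Model_Swim. Model lay below Ctrl and below Model_Swim without overlap, and Model_Swim lay within the range of Ctrl_Swim. In Model against Ctrl its log2 fold change was -0.38 (SE 0.10, edgeR adjusted p = 0.0143). Without Ctrl 3 the adjusted p was 0.0567, and without Model 1 and Model 3 it was 0.0624.

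Hnf4g, the paralog that is highest in small intestinal enterocytes, was at 56.3, 59.9 and 59.6 CPM in Ctrl, at 48.7, 47.4 and 50.7 CPM in Ctrl_Swim, at 21.2, 26.6 and 34.8 CPM in Model, and at 43.5, 44.4 and 43.0 CPM in Model_Swim. In CPM the 4 groups did not overlap at all, in the order Ctrl, Ctrl_Swim, Model_Swim, Model. In FPKM Ctrl_Swim reached into the range of Ctrl. In Model against Ctrl its log2 fold change was -1.09 (SE 0.13, edgeR adjusted p = 0.000591), lower than in all but 1.79% of tested genes. Without Model 1 and Model 3 it was -1.16 (edgeR adjusted p = 7.44e-05).

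Hnf4g fell more than its paralog. The CPM of Hnf4g was 6.31% to 6.70% of that of Hnf4a in Ctrl, 5.28% to 7.46% in Ctrl_Swim, 3.27% to 4.87% in Model and 4.94% to 5.39% in Model_Swim. AOM/DSS lowered this ratio by a log2 difference of -0.49 (exact permutation test over 400 labellings, two-sided p = 0.01, where 0.005 is the smallest possible), and in each of the tests that left out a library the p was at most 0.025. Model_Swim lay above Model without overlap and 0.41 higher on the log2 scale.

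**Figure D2:**
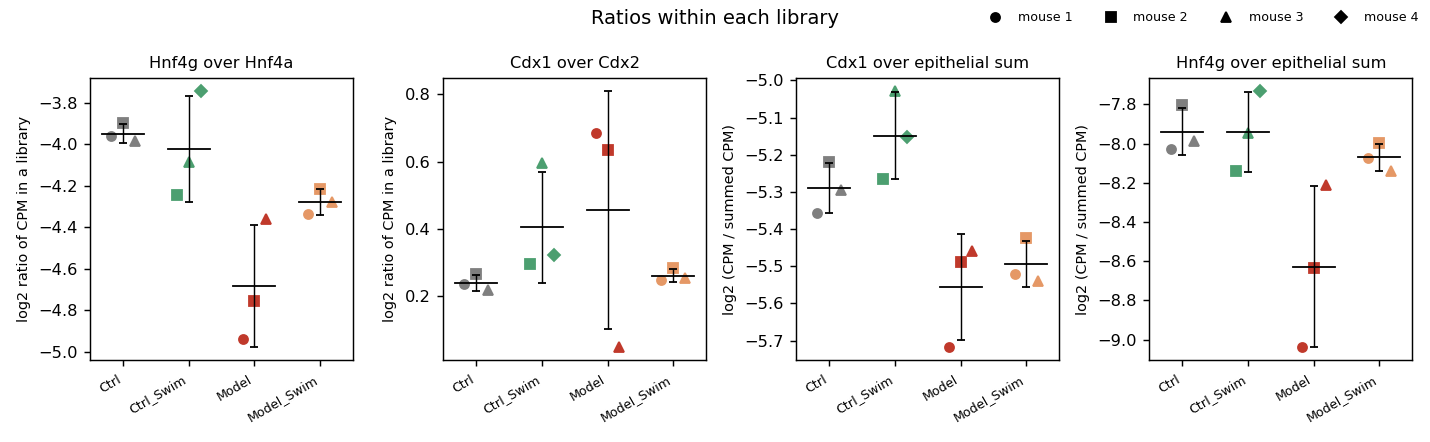
Log2 ratios within each library, for Hnf4g over Hnf4a, Cdx1 over Cdx2, and Cdx1 and Hnf4g over the summed CPM of 12 epithelial genes, with group means as lines and SD as bars; symbols give the label's number, and the axes do not start at 0. Hnf4g over Hnf4a is lowest in Model, where Hnf4g is 3.27% to 4.87% of Hnf4a, and Cdx1 over Cdx2 varies most within Model, from 1.03 to 1.61.

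Gata6, the GATA factor found along the whole gut epithelium, was at 54.4, 50.9 and 52.9 CPM in Ctrl, at 51.7, 52.8 and 40.6 CPM in Ctrl_Swim, at 41.8, 40.0 and 46.8 CPM in Model, and at 52.1, 46.6 and 47.7 CPM in Model_Swim. Model lay below Ctrl without overlap, but Ctrl_Swim 4 was as low as Model. The decrease was the smallest of the 6, with a log2 fold change of -0.30 (SE 0.10, edgeR adjusted p = 0.0400). It passed in 11 of 22 alternative fits, and leaving out any 1 of the Ctrl libraries gave an adjusted p of 0.0762 to 0.118, so the call is at the limit of what these samples show.

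Gata4 was at 0.662, 1.25 and 0.550 CPM in Ctrl, at 1.42, 0.745 and 0.664 CPM in Ctrl_Swim, at 3.43, 0.490 and 1.89 CPM in Model, and at 0.991, 0.707 and 0.530 CPM in Model_Swim. Only Model 1 and Model 3 were above the other 10 libraries, and they are the libraries with pancreatic RNA. The log2 fold change in Model against Ctrl was 1.23 (SE 0.62, edgeR adjusted p = 0.145). Without Model 1 and Model 3 it was -0.76 (edgeR adjusted p = 0.465), and without Model 2 it was 1.71 (edgeR adjusted p = 0.0349). The part of the pancreatic RNA in the Gata4 level was not tested.

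Atoh1, the switch to the secretory lineage, was at 79.0, 79.4 and 87.6 CPM in Ctrl, at 65.6, 78.4 and 49.5 CPM in Ctrl_Swim, at 43.7, 62.6 and 58.3 CPM in Model, and at 81.8, 58.3 and 59.0 CPM in Model_Swim. Ctrl was above the other groups except Model_Swim 1, which was within its range. The log2 fold change in Model against Ctrl was -0.58 (SE 0.19, edgeR adjusted p = 0.0343). The call was lost without Ctrl 1 (adjusted p = 0.0707), without Ctrl 2 (adjusted p = 0.0762), without Ctrl 3 (adjusted p = 0.105) and without Model 1 (adjusted p = 0.104), each by edgeR. Without both Model 1 and Model 3 the log2 fold change was -0.41 (edgeR adjusted p = 0.210), and the limma fits of FPKM gave an adjusted p of 0.0738 to 0.101.

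Klf4, which is expressed in goblet cells and in the upper crypt but also outside the epithelium, was at 772, 631 and 660.5 CPM in Ctrl, at 568, 486 and 417 CPM in Ctrl_Swim, at 470.4, 792 and 509 CPM in Model, and at 638, 589 and 539.9 CPM in Model_Swim. Model 2 was the highest of all 12 libraries, and the other Model libraries were lower than every Ctrl library. The log2 fold change in Model against Ctrl was -0.22 (SE 0.18, edgeR adjusted p = 0.375), but it was -0.47 without Model 2 (edgeR adjusted p = 0.0279), so 1 library decides this value. The ratio of Klf4 to Atoh1 was 7.54 to 9.77 in Ctrl and 8.73 to 12.6 in Model, and its log2 difference with AOM/DSS was 0.28 (exact permutation test, two-sided p = 0.065), with an exact permutation p of 0.04 without Model 3 and 0.045 without Model_Swim 1.

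In bulk tissue, fewer epithelial cells and less RNA of a gene per cell cannot be told apart. Between Ctrl and Model the summed level of 9 stromal and endothelial genes went from 1525 to 1670 CPM up to 2603 to 2919 CPM, with 8 of the 9 higher, and that of 11 leukocyte genes from 275 to 288 CPM up to 688 to 709 CPM, with all 11 higher, or 7 of the 11 without Model 1 and Model 3. The summed level of 14 squamous genes, of the kind found at the anus, was 13.7 to 20.1 CPM in Ctrl, 34.0 to 2047 CPM in Model and 9.95 to 1154 CPM in the swimming groups, and 11 of the 14 were higher in Model by edgeR. None of the 14 passed without any 1 of the Ctrl libraries or without Model 2, and 0 to 2 passed in the limma fits. Of 6 mesothelial genes 1 was higher, and none without any 1 of the Ctrl libraries, Model 1 or Model 3. Of 8 smooth muscle genes none passed by edgeR, while 1 was higher without Model 1 and 1 lower without Model 2. Their part in the changes of the factors was not tested.

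Each factor was therefore also expressed relative to the 12 general epithelial genes of its library. Krt8 and Krt19, with means of 4160 and 2500 CPM over the 12 libraries, weighed most in this sum. Between Ctrl and Model they fell by 0.67 and 0.60 on the log2 scale, the most of the list, whose median was -0.29. A relative level therefore depends largely on these 2 keratins, and their part in it was not tested. Cdx1 was 2.44% to 2.68% of the summed epithelial CPM in Ctrl, 2.60% to 3.06% in Ctrl_Swim, 1.90% to 2.28% in Model and 2.15% to 2.33% in Model_Swim, and AOM/DSS lowered it by a log2 difference of -0.31 (exact permutation test over 400 labellings, two-sided p = 0.005, the smallest possible). All 6 AOM/DSS libraries were below all 6 others. Cdx2 was 2.07% to 2.23% in Ctrl and 1.18% to 2.20% in Model, with a log2 difference of -0.34 over both strata (exact permutation p = 0.02). Hnf4g was 0.383% to 0.448% in Ctrl and 0.190% to 0.338% in Model, with a log2 difference of -0.41 (exact permutation p = 0.025). The values of Cdx2 and Hnf4g had a p of 0.07 or more without any 1 of the Ctrl libraries. For the other 5 factors the relative level was not shown to differ, with a log2 difference of 0.08 for Hnf4a (exact permutation p = 0.135), 0.09 for Gata6 (exact permutation p = 0.2), -0.04 for Atoh1 (exact permutation p = 0.935), 0.24 for Klf4 (exact permutation p = 0.085) and 0.55 for Gata4 (exact permutation p = 0.33). Without Model 1 the exact permutation p was 0.025 for Hnf4a (log2 difference 0.12) and 0.025 for Klf4 (0.33), and without Ctrl_Swim 3 it was 0.04 for Gata6 (0.14). Without both Model 1 and Model 3 the value of Hnf4g was -0.41 at an exact permutation p of 0.0625, and that of Klf4 was 0.48 at an exact permutation p of 0.0125. These 8 tests and the 4 of paralog or fate ratios are given without adjustment.

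**Figure D3:**
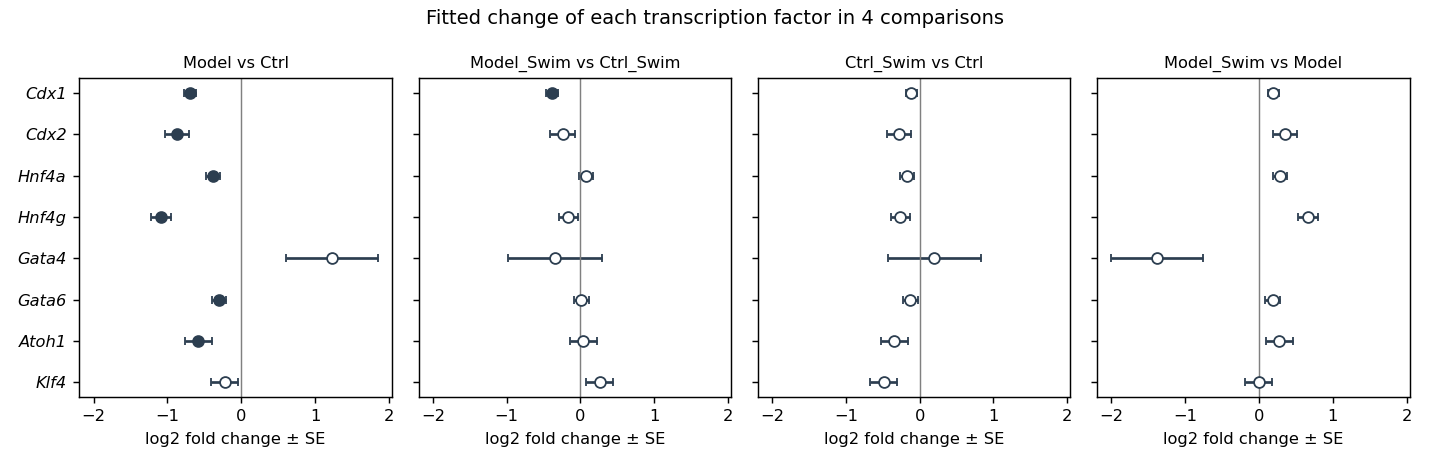
Fitted log2 fold change (horizontal axis) with its SE for each of the 8 factors in 4 comparisons of 3 against 3 libraries; filled points passed at an adjusted p under 0.05. In Model vs Ctrl 6 points are filled, in Model_Swim vs Ctrl_Swim only Cdx1 at -0.38, and none in either swimming comparison.

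In trained mice, AOM/DSS lowered Cdx1. Between Model_Swim and Ctrl_Swim, 1 of the 8 factors passed, lower, against 1.69% of all tested genes. Cdx1 fell by 0.38 on the log2 scale (SE 0.08, edgeR adjusted p = 0.0226), a call that was lost without Ctrl_Swim 2, Ctrl_Swim 3 or any 1 of the Model_Swim libraries, at adjusted p-values of 0.0556 to 0.0679 by edgeR. Cdx2 and Hnf4g were also lower without overlap, by log2 fold changes of -0.24 (edgeR adjusted p = 0.420) and -0.16 (edgeR adjusted p = 0.505), and 16.5% of tested genes were lower without overlap. Hnf4a, Gata6 and Atoh1, which were lower in Model than in Ctrl, had log2 fold changes of 0.08, 0.01 and 0.04 here.

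Averaged over untrained and trained mice, AOM/DSS lowered 3 of the 8 factors, against 16.5% of tested genes. They were Cdx1 at a log2 fold change of -0.54 (SE 0.05, edgeR adjusted p = 0.000118), Cdx2 at -0.56 (SE 0.12, edgeR adjusted p = 0.00456) and Hnf4g at -0.63 (SE 0.09, edgeR adjusted p = 0.000843). For the same 3 genes all 6 AOM/DSS libraries were below all 6 others, as were those of 6.44% of tested genes. Without Ctrl_Swim 4, in which Hnf4a, Gata6, Atoh1 and Klf4 were at their lowest in the trained controls, 6 of the 8 passed, against 33.0% of tested genes in either direction.

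Swimming in AOM/DSS mice gave no call by edgeR among the 8 factors, against 0.0710% of all tested genes. At an unadjusted p under 0.05 there were 4, against 13.6% of tested genes. They were Hnf4g, Hnf4a and Cdx1, which were higher, and Gata4, which was lower. The log2 fold change of Gata4 was -1.38, and it was 0.61 without Model 1 and Model 3. DESeq2 called 1 factor, Hnf4g, against 2.33% of the genes it tested. Hnf4g was 1.59-fold higher in Model_Swim than in Model, a log2 fold change of 0.67 (SE 0.13, edgeR adjusted p = 0.0916). Cdx1 was 0.20 higher on the log2 scale (edgeR adjusted p = 0.310) and Hnf4a 0.29 higher (edgeR adjusted p = 0.266), and these 3 were higher without overlap, as were 8.32% of tested genes. Cdx2 was 0.35 higher (edgeR adjusted p = 0.379) and the value of Klf4 was -0.00 (SE 0.18, edgeR adjusted p = 0.995). Without Model 3, the adjusted p by edgeR was 0.000218 for Hnf4g and 0.00466 for Cdx2, at log2 fold changes of 0.88 and 0.63, so this library decides these calls, while 5.62% of all tested genes then passed. Without both Model 1 and Model 3, Hnf4g (edgeR adjusted p = 0.00171) and Cdx2 (edgeR adjusted p = 0.0295) also passed, against 3.57% of tested genes. The libraries also divided by traces of 7 pancreatic genes, given as a percent of their mean in Model 1 and Model 3. They were at most 0.00789% in Model_Swim and in Ctrl_Swim 2 and 4, and at least 0.0836% in the other 7. All Model libraries are on the other side from all Model_Swim libraries, and with a term for that division, Hnf4g was 0.60 higher (edgeR unadjusted p = 0.0356, adjusted p = 0.981). The part of this division in the swimming comparison cannot be told apart.

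Swimming in mice without AOM/DSS gave no call by edgeR or DESeq2 among the 8 factors. Of all genes that each tested, edgeR called 0.969% and DESeq2 4.92%. At an unadjusted p under 0.05 there was 1, Klf4, against 17.6% of tested genes. Klf4 was 1.40-fold lower in Ctrl_Swim than in Ctrl, with a log2 fold change of -0.49 (SE 0.18, edgeR unadjusted p = 0.0218, adjusted p = 0.215). In CPM, Klf4, Cdx1, Cdx2, Hnf4g and Atoh1 were lower in Ctrl_Swim without overlap, 5 of 8 factors, against 14.9% of tested genes. The gap was small for Cdx1, at 357.7 against 358.7 CPM, and for Atoh1, at 78.4 against 79.0 CPM. In FPKM only Klf4 of these 5 stayed without overlap. The log2 fold changes of the 5 lay between -0.49 for Klf4 and -0.12 for Cdx1. Without Model 1 and Model 3, which enter the shared estimate of the spread, Hnf4g (edgeR adjusted p = 0.0370) and Klf4 (edgeR adjusted p = 0.0451) passed, against 3.79% of tested genes. Averaged over mice with and without AOM/DSS, swimming gave no call by edgeR or DESeq2, against 0.652% of tested genes by edgeR and 3.06% by DESeq2. By edgeR there was also none at an unadjusted p under 0.05, against 12.9%.

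The difference between the swimming effects with and without AOM/DSS, the interaction, did not pass by edgeR for any factor, nor for any gene (0%). At an unadjusted p under 0.05 there were 6, against 19.0% of tested genes, and DESeq2 called 2, Hnf4a and Hnf4g, against 5.52% of the genes it tested. The value was 0.93 for Hnf4g (SE 0.19, edgeR unadjusted p = 0.000426, adjusted p = 0.114), 0.63 for Cdx2 (adjusted p = 0.183), 0.46 for Hnf4a (adjusted p = 0.141) and 0.31 for Cdx1 (adjusted p = 0.169), all by edgeR. Without Model 3, Hnf4g (edgeR adjusted p = 0.000610) and Cdx2 (edgeR adjusted p = 0.00647) passed, against 4.57% of tested genes, and without Model 1 Hnf4g did (edgeR adjusted p = 0.0428), against 0.448%. Without both, the same 2 factors passed at edgeR adjusted p-values of 0.00118 and 0.0138, against 5.75% of tested genes. The comparisons with and without swimming share their Model, Ctrl and swimming libraries, so these values are not independent of those above.

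Genes that the factors are known to serve were described by lists, each by its counts and median. Of 18 genes of mature colonocytes, 7 fell between Ctrl and Model and 1 rose, and their median was -0.44 on the log2 scale against 0.01 for all tested genes, of which 16.2% were lower and 16.5% higher. Without Model 3, 11 of the 18 fell and 2 rose, without Ctrl 2, 5 fell and none rose, and without both Model 1 and Model 3, 8 fell and 4 rose. Villin 1 (Vil1), a brush border protein and a known Cdx2 target, fell by 0.49 on the log2 scale (SE 0.09, edgeR adjusted p = 0.00359), and Myo1a, the brush border myosin, by 0.67 (SE 0.11, edgeR adjusted p = 0.00160). Lgals4, a galectin of the apical membrane, fell by 0.36 (edgeR adjusted p = 0.0168). Car1, a carbonic anhydrase of the proximal colon, had a mean of 6661 ± 239 CPM (SD, n = 3) in the control mice and of 1806 ± 2534 CPM (SD, n = 3) in the Model mice, and did not pass (edgeR adjusted p = 0.0938). The gene that rose was Ceacam20, named after its value was seen. In Model_Swim vs Model none of the 18 passed by edgeR, with a median of 0.33.

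Genes of the small intestinal or proximal region were lower with the factors. Of 15 listed genes 13 were tested, and 12 of these fell between Ctrl and Model, and the median of the 13 was -1.72 on the log2 scale. The count was 8 of 13 without Ctrl 3, 13 of 13 without Model 3, and 7 of 15 tested without both Model 1 and Model 3, where the median was -2.08. Fabp2, the fatty acid binding protein of enterocytes, went from 516 ± 32.1 to 162 ± 91.6 CPM (SD, n = 3 each), a log2 fold change of -1.67 (SE 0.32, edgeR adjusted p = 0.00351). Fabp6, the ileal bile acid binding protein, went from 48.4 ± 31.9 to 1.88 ± 0.367 CPM (edgeR adjusted p = 0.00189). Apob, which packs lipid for export, fell by 0.90 (edgeR adjusted p = 0.00312) and Slc5a1, the sodium glucose transporter, by 0.71 (edgeR adjusted p = 0.000612), both on the log2 scale. The exception was Slc10a2, the ileal bile acid transporter, at -1.64 (edgeR adjusted p = 0.139), named after its value was seen. In Model_Swim vs Model the median was 1.15, and none of the 13 passed by edgeR. How much of the colon length each library holds is not given, and the summed level of the list varied from 1098 to 1708 CPM even within Ctrl.

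Of 17 secretory genes that lie downstream of or beside Atoh1, 6 fell and 2 rose between Ctrl and Model, with a median of -0.24. The number that rose was 1 without Ctrl 1, Ctrl 2, Model 2 or any 1 of the Model_Swim libraries. Spink4, of goblet cells, fell by 1.62 on the log2 scale (SE 0.24, edgeR adjusted p = 0.00125) and Agr2, a disulfide isomerase that mucin folding needs, by 0.92 (edgeR adjusted p = 0.00172). Clca1, a protease of the mucus, fell by 1.38 (edgeR adjusted p = 0.0483), while Muc2, the main gel-forming mucin, was at 9620.2 ± 1135 and 8190.2 ± 4496 CPM and did not pass (edgeR adjusted p = 0.605). The genes that rose were Dll1 and Dll4, the Notch ligands of the list, named after their values were seen. In Ctrl_Swim vs Ctrl, 3 of the 17 were lower, and they were Clca1, Agr2 and Spink4, at edgeR adjusted p-values of 0.0465, 0.0395 and 0.0465, against 0.801% of tested genes. No gene of the whole table passed in this comparison without Ctrl 1, Ctrl 3 or Ctrl_Swim 3 or with the term for the division by pancreatic traces, and 1 gene did with the replicate number as a block. Of 12 genes of the Notch pathway, which opposes Atoh1, 11 were tested and 5 rose between Ctrl and Model, with none lower and a median of 0.52. Without Ctrl 1, Ctrl 2 or Model 2 the number that rose was 3, with 1 lower in the last case, and the limma fits gave 7 or 8. Notch2 rose by 0.73 on the log2 scale (SE 0.09, edgeR adjusted p = 0.000604), Notch1 by 0.67 (edgeR adjusted p = 0.00111) and Lfng, which tunes Notch ligand binding, by 0.48 (edgeR adjusted p = 0.00525), and Adam10, the protease that cleaves the receptors, was 0.18 higher (edgeR adjusted p = 0.214). Of the 11, 9 had a value above 0 and 2 below it. Those 2 were Hes1 at -0.22 (edgeR adjusted p = 0.265) and Nrarp at -0.39 (edgeR adjusted p = 0.0527), named after their values were seen. Whether Notch signaling itself changed was not tested. Notch genes are also expressed in vessels and leukocytes, whose lists were higher in Model.

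Of 20 other epithelial transcription factors, 6 fell and 2 rose, with a median of -0.21 and 12 that did not pass. Without Ctrl 1 the number that fell was 2, without Ctrl 3 it was 3, without Model 3 it was 9, and in the limma fits it was 1 or 2. Ehf, an ETS factor of epithelia, fell by 0.35 on the log2 scale (edgeR adjusted p = 0.00866). Prdm1, a repressor that is also high in plasma cells, rose by 0.73 (edgeR adjusted p = 0.00273), and Elf3 was 0.18 higher (edgeR adjusted p = 0.159). Of the 12 general epithelial genes, 7 fell and 1 rose, with a median of -0.29, and 4 fell without Ctrl 1, without Ctrl 3 or in the limma fits. Without Ctrl 2 none rose. Krt8 and Krt19, simple keratins, fell by 0.67 (edgeR adjusted p = 0.00147) and 0.60 (edgeR adjusted p = 0.00187), Spint2, a protease inhibitor, by 0.33 (edgeR adjusted p = 0.00944), and Ap1m2, a subunit of an epithelial sorting adaptor, by 0.42 (edgeR adjusted p = 0.00664), all on the log2 scale. Of the 5 distal Hox genes none passed by edgeR, with a median of 0.46. This median was -0.09 without Model 1, 0.86 without Model 3, where 1 gene was higher, and -0.46 by limma on log2(FPKM + 0.1), so its direction is not settled.

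**Figure D4:**
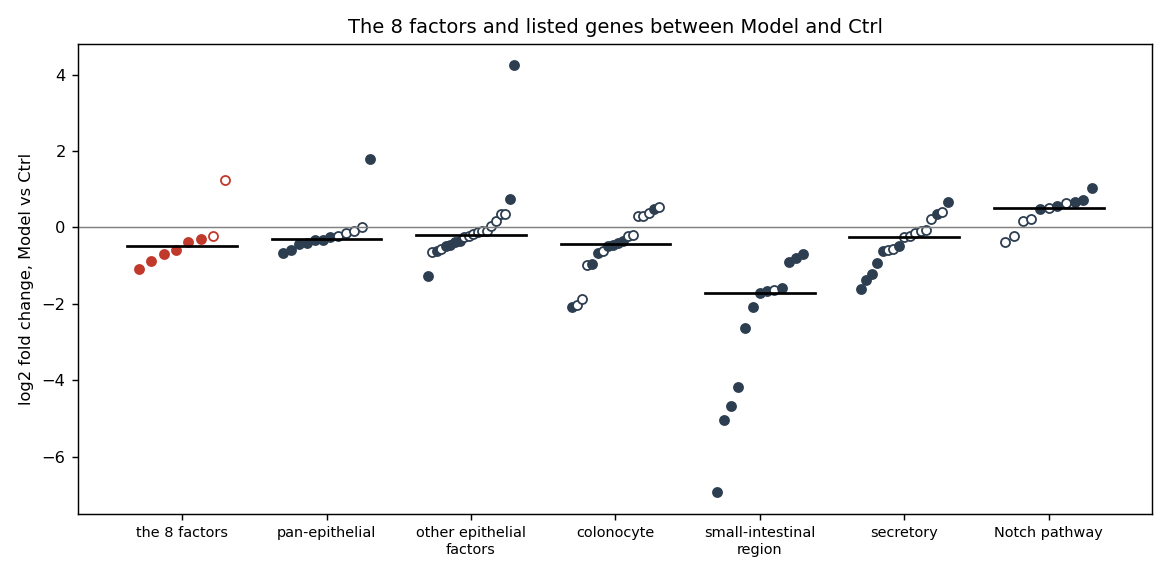
Log2 fold change between Model and Ctrl (vertical axis) of each tested gene of the 8 factors and of 6 lists, with list medians as lines; filled points passed at an adjusted p under 0.05. The medians are -0.48 for the factors, -1.72 for the small-intestinal region list and 0.52 for the Notch pathway list.

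Across the 12 libraries, which share the group differences, the levels of the factors varied together to unequal extents. Pearson's r of log2 CPM was 0.95 between Cdx2 and Hnf4g (Spearman's rho 0.91), 0.88 between Cdx1 and Cdx2, 0.87 between Cdx1 and Hnf4g, 0.86 between Hnf4a and Gata6 and 0.83 between Hnf4a and Atoh1. Klf4 stood apart, with r of 0.18 to Cdx1 and Cdx2 and 0.60 to Atoh1, and Gata4 had negative r to all the others, from -0.48 to -0.12. Since the libraries form groups, these are descriptions with no test.

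The 3 genes most like each factor, out of 13945 compared by Pearson's r over the 12 libraries, differed between the factors. For Cdx1 they were Uqcr11 (r = 0.99), Ndufa11 (r = 0.98) and Suclg1 (r = 0.98), which encode mitochondrial proteins of respiration and of the citric acid cycle. For Cdx2 they were the mitochondrial calcium channel Mcu, the phospholipid enzyme Cds1 and cytochrome c (Cycs), each at r = 0.98, and with group means removed r was 0.96, 0.95 and 0.90. For Hnf4a they were Ticam1, Tgoln1 and Shroom3, at r of 0.95 to 0.96. For Hnf4g they were Bche (r = 0.98), Gipc2 (r = 0.97) and the small-intestinal region gene Fabp2 (r = 0.96). For Gata6 they were Mllt1, Lypla2 and Cant1, at r of 0.91 to 0.92, and for Gata4, whose few counts make r uncertain, Spice1, Tubgcp5 and Arhgdig, at 0.88 to 0.91. For Atoh1 they were Lrfn3, Ssx2ip and Gpr107, at 0.94 to 0.95, and for Klf4 the mucus protein Fcgbp (r = 0.95), Map7 (r = 0.93) and the membrane linker ezrin (Ezr, r = 0.92).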

How the data were processed

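Per the labels and the paper's methods, the library kit was TruSeq Stranded mRNA, and reads came from a HiSeq X system. The methods name TRIzol and the labels a mirVana kit for RNA extraction. Trimming by the authors was done with Trimmomatic, alignment (GRCm38.p6) with HISAT2 and counting per gene with HTSeq-count. The deposited counts are whole numbers without normalization. The FPKM values deposited by the authors came from Cufflinks and were 0 exactly where the count was 0. Tool versions and the annotation release are not given in the sources used here.

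The counts went into edgeR 4.0.16 under R 4.3.3 (TMM, filterByExpr with a minimum count of 10, a quasi-likelihood fit of all 4 groups at once). P-values were adjusted by the Benjamini-Hochberg method over all 15484 tested genes in each of 7 comparisons, and a gene passed at an adjusted p under 0.05. Log2 CPM for correlations used a prior count of 2. Ratios within libraries were tested by exact permutation within untrained and trained mice. Alternatives were DESeq2 1.42.0, its size factors in edgeR, no filter, a fit of the compared groups alone, a block for the replicate number, limma 3.58.1 on log2(FPKM + 1) and log2(FPKM + 0.1) above a mean FPKM of 0.5, limma without a filter, a term for the division by pancreatic traces, removal of Model 1 and Model 3, and removal of each library. The code was tested on simulated data.

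The 8 factors and the gene lists were chosen with earlier results of these data known. Named from each list of epithelial, region or pathway genes were the 2 of highest mean CPM and the 2 others of smallest p between Model and Ctrl, and for each factor the 3 genes of highest r with a mean of at least 1 CPM, without gene models; genes of other cell types are given as sums. A gene named by this rule is not reported here. Replicates are separate libraries of a group by their labels, and the p-values measure the spread between them. Promoter entries were found in RefSeq for 4 of the 8 genes (Cdx2, Hnf4a, Atoh1 and Klf4).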

Additional observations from a re-analysis of the deposited data

How the results depend on the processing

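Of 1028 alternative values of the log2 fold changes of the 8 factors, 942 kept direction and call, 28 lost a call, 20 gained one and 38 turned in direction, none of the last being a call. These values do not include those of swimming averaged over AOM/DSS. The calls of Cdx1, Cdx2 and Hnf4g between Model and Ctrl were kept in all 22 alternatives, those of Hnf4a were lost in 2, of Atoh1 in 8 and of Gata6 in 11. Depth was not far apart between libraries and limits mainly Gata4, with 9 to 64 counts. The causes of the changes below were not tested.

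Leaving out 1 library gave 3 to 7 factors passing in Model vs Ctrl (6 with all), against 20.1% to 35.8% of tested genes. The number was 3 without Ctrl 3, against 20.8%. In Model_Swim vs Model it was 0 to 2 (0 with all), against 0.0382% to 5.62%, and 2 without Model 3. In Model_Swim vs Ctrl_Swim it was 0 to 1 (1 with all), against 1.08% to 9.30%. For AOM/DSS averaged over swimming it was 3 to 6 (3 with all), against 25.4% to 36.8%. For swimming averaged over AOM/DSS it was 0 to 1 (0 with all), against 0.0954% to 4.29%. For the interaction it was 0 to 2 (0 with all), against 0% to 4.57%. The shares count both directions. DESeq2 passed 1 factor in Model_Swim vs Model and 2 in the interaction, against 2.33% and 5.52% of the genes it tested. Without Model 1 and Model 3, which leaves Model with 1 library that is assumed to vary like the other groups, 2 passed in Model_Swim vs Model, 2 in Ctrl_Swim vs Ctrl, 2 for swimming averaged and 2 for the interaction, against 3.57%, 3.79%, 3.27% and 5.75% of all tested genes. With a term for the division by pancreatic traces, 0 passed in Model_Swim vs Ctrl_Swim, against 1.38% of tested genes.

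The labels do not say whether the replicate numbers pair mice between groups, and the main fit did not pair them. Of 15 pairs with the same number, 4 had a correlation of deviations over 0.1, with a range of -0.26 to 0.56. Pairs with different numbers ranged from -0.56 to 0.45, so these values do not decide whether mice were paired. With the number as a block, 0 factors passed in Model_Swim vs Ctrl_Swim, against 0.258% of tested genes. Cdx1 had an edgeR adjusted p of 0.0583 there. Under this block, values that turned in direction were 0.011 for Klf4 in Model_Swim vs Model, 0.0052 for Gata6 in Ctrl_Swim vs Ctrl, -0.014 for Hnf4a, -0.12 for Gata6 and -0.11 for Atoh1 in Model_Swim vs Ctrl_Swim, and -0.038 for Klf4 with AOM/DSS averaged (log2 fold changes). For the ratios, an alternative chosen after seeing the data took the 5 pairs of libraries with the same number, for which the replicate block allows 32 sign labellings and no p under 0.0625. It gave -0.41 for Hnf4g over Hnf4a (exact permutation p = 0.125), and over the epithelial sum -0.30 for Cdx1 (exact permutation p = 0.0625), -0.32 for Cdx2 (exact permutation p = 0.125) and -0.36 for Hnf4g (exact permutation p = 0.125), with no ratio turning in direction.

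The other log2 fold changes that turned in direction were as follows. Without Model 1 and Model 3, Gata4 was at -0.76 and Klf4 at 0.18 in Model vs Ctrl, and Gata4 at 0.61 in Model_Swim vs Model, -0.55 with AOM/DSS averaged and 0.41 in the interaction. Klf4 in Model_Swim vs Model was at 0.00067 by DESeq2, 0.015 without the filter and 0.018 in the 3 limma fits of FPKM, and -0.15 to 0.25 when 1 library was left out. The 3 limma fits gave 0.0088 for Cdx1 in Ctrl_Swim vs Ctrl and -0.0049 for Gata6 in Model_Swim vs Ctrl_Swim. The term for the division gave -0.14 for Gata4 and 0.0024 for Gata6 in Ctrl_Swim vs Ctrl. Leaving out 1 library gave -0.20 to 0.64 for Gata4 in Ctrl_Swim vs Ctrl, and in Model_Swim vs Ctrl_Swim -0.031 to 0.17 for Hnf4a, -0.61 to 0.059 for Gata4, -0.10 to 0.076 for Gata6 and -0.14 to 0.20 for Atoh1, and -0.11 to 0.10 for Klf4 with AOM/DSS averaged.

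For the log2 ratios with AOM/DSS, leaving out 1 library gave -0.021 to 0.14 for Cdx1 over Cdx2 and 0.21 to 0.35 for Klf4 over Atoh1. For the level over the epithelial sum it gave -0.47 to -0.24 for Cdx2, 0.061 to 0.12 for Hnf4a, -0.51 to -0.31 for Hnf4g, 0.048 to 0.14 for Gata6, -0.12 to 0.053 for Atoh1 and 0.12 to 0.33 for Klf4. Without Model 1 and Model 3, Gata4 over Gata6 was -0.29, and over the epithelial sum Hnf4g was -0.41 (exact permutation p = 0.0625), Gata4 -0.24, Atoh1 0.069 and Klf4 0.48 (exact permutation p = 0.0125).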

Other observations

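Among the other listed epithelial genes, 4 that changed between Model and Ctrl are given here, and they were named after their values were seen. Onecut2, a transcription factor of liver and pancreas development, was at 0.0915 CPM in Ctrl and 0.142 CPM in Ctrl_Swim, at or under the limit that a count of 0 allows, against 1.85 ± 2.58 CPM (SD, n = 3) in Model and a mean of 2.14 CPM in Model_Swim (edgeR adjusted p = 0.0180 for Model vs Ctrl). Cldn4, a tight junction protein, rose from 29.5 ± 8.13 to 103 ± 64.1 CPM (SD, n = 3 each) and was at 105 CPM in Model_Swim. Its log2 fold change between Ctrl and Model was 1.80 (SE 0.45, edgeR adjusted p = 0.0119). It was the gene of the general epithelial list that rose, and without Ctrl 2 none of that list rose. Creb3l3, a regulator of lipid genes in liver and intestine, fell by 1.27 on the log2 scale (SE 0.40, edgeR adjusted p = 0.0336), from 10.8 to 4.48 CPM, and was at 13.2 CPM in Model_Swim, where the difference from Model did not pass (edgeR adjusted p = 0.173). Spdef, a factor that acts after Atoh1 in goblet cell maturation, fell by 1.23 (SE 0.20, edgeR adjusted p = 0.00191), from 151 to 64.6 CPM, a larger fitted decrease than that of Atoh1, though the difference between the 2 genes was not tested.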
